A study of Xenopus laevis with 6 samples.

Results

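The genes described here encode integrins, cell-surface proteoglycans, extracellular matrix proteins, matrix proteases and the enzymes that modify collagen or make hyaluronan, in primordial germ cells (PGCs) and endoderm cells of Xenopus laevis. They were found by symbol in a read count table named v9.1, where 113 of 10364 gene models carried such a symbol. These gene models had 70 distinct symbols, of which 43 had 2 gene models and 27 had 1, and all 113 passed the low-count filter. Xenopus laevis is an allotetraploid frog, so many genes are present as a pair of copies, called L and S homeologs.

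The 6 libraries were 3 of PGCs and 3 of stage-matched endoderm cells, all from stage 12-14 embryos. The labels name no treatment, strain or genotype, and both cell types were isolated from the embryo, lysed, and depleted of ribosomal RNA before library preparation. PGCs are the precursors of eggs and sperm and in frogs develop within the endoderm. The comparison asks how the RNA content of PGCs differs from that of stage-matched endoderm. Total counts were 14.5 to 16.9 M in PGC libraries and 9.9 to 28.3 M in endoderm libraries. Per the labels' protocols each depleted RNA sample was split into 3 aliquots for library preparation, and separate collections are not mentioned, so a p-value here reflects the scatter of 3 libraries a group, which may be technical.

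Integrins are cell-surface receptors made of 1 alpha and 1 beta subunit that hold cells to matrix proteins such as fibronectin and laminin. Syndecans and glypicans are membrane proteoglycans whose heparan sulfate chains bind matrix and growth factors, and metalloproteinases of the MMP, ADAM and ADAMTS families cut matrix and surface proteins. In Xenopus gastrulae a fibronectin matrix is the substrate on which mesendoderm cells migrate. In bulk RNA, fewer cells with an RNA and less of that RNA per cell cannot be told apart.

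As checks of the labels, all 9 gene models of the PGC markers nanos1, dazl, ddx25, dnd1, grip2, tex15 and spire1 were higher in PGCs. They summed to 141322 to 142994 counts per M (CPM) in PGC libraries and 698.3 to 765.6 CPM in endoderm libraries. Of 22 endoderm marker gene models, 15 were lower and 3 higher in PGCs, with sums of 11153 to 11443 CPM in PGC libraries and 27100 to 27553 CPM in endoderm libraries. Most of these sums came from a2m, at 6933 to 7176 CPM in PGC libraries and 19677 to 19797 CPM in endoderm libraries. The 3 higher were both gene models of gata4 (1.53 ± 0.15 and 0.36 ± 0.12) and 1 of mixer (3.15 ± 0.37). Of 22 mesoderm marker gene models 6 were higher and 2 lower, and of 20 ectoderm and neural ones 8 were higher and 9 lower. CPM here are scaled for library size and composition, a level with ± is a mean and SD of the 3 libraries of a group, and a fold change is the log2 ratio of PGC over endoderm ± standard error.

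As a group, these genes were not called more often than other genes. Of the 113 gene models, 19 were lower in PGCs (16.8%) and 11 higher (9.73%) by edgeR's quasi-likelihood test at a Benjamini-Hochberg adjusted p under 0.05. Over all gene models 16.8% were lower and 12.6% higher, so the lower share equalled that of the table and the higher share was below it. Gene models of itga3, fn1 and thbs1 were among those lower, and of col1a2, adamts1 and has2 among those higher. The median log2 fold change was 0.01 over the 113 gene models and 0.07 over all gene models. The groups did not overlap for 57 of the 113, against 48.2% of all gene models, with PGC libraries above for 34 (24.5% of all) and below for 23 (23.7%). Together the 113 took 0.904 ± 0.018% of counts in PGC libraries and 1.15 ± 0.015% in endoderm libraries (SD, n = 3). With libraries scaled by total counts alone 13 were lower and 17 higher (10.8% and 18.6% of all gene models), and when library scaling followed expression level 9 were lower and 9 higher (11.2% and 12.5%).

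**Figure D1:**
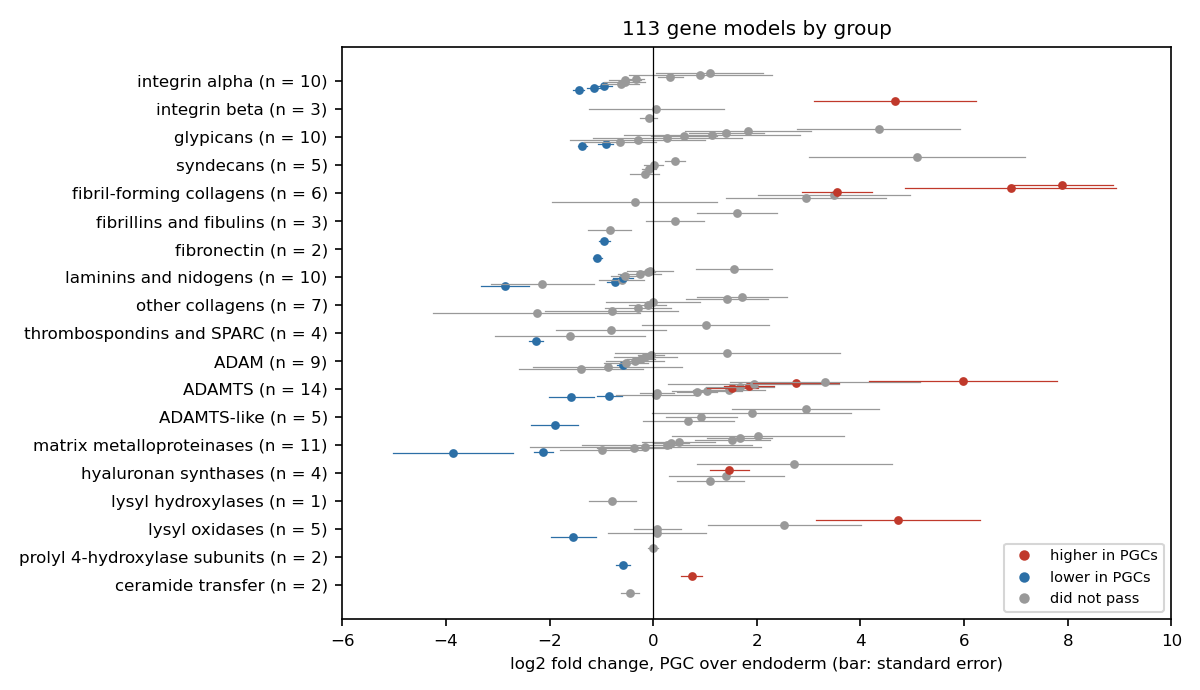
Log2 fold change of PGC over endoderm for each of the 113 gene models, by group of genes, with bars for the standard error. All 3 fibril-forming collagen gene models that passed lie to the right of 0, and both fibronectin gene models lie to the left.

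Of 13 integrin gene models 3 were lower in PGCs (23.1%, against 16.8% of all gene models), 1 was higher (7.69%, against 12.6%) and 9 did not pass. The 3 encode alpha subunits that bind laminin, fibronectin or vitronectin. itga3 (Xelaev18046037m), the alpha subunit of a laminin receptor, had 412, 371 and 465 CPM in the 3 PGC libraries, against 1118, 1104 and 1157 CPM in the 3 endoderm libraries. The PGC libraries lay wholly below the endoderm libraries, at a log2 fold change of -1.44 ± 0.10 (edgeR adjusted p = 5.5e-07). itga6 (Xelaev18044700m), another laminin-binding alpha subunit, stood at 155 ± 13.0 in PGCs against 342 ± 9.4 CPM in endoderm (-1.14 ± 0.13, edgeR adjusted p = 3.57e-05). itgav (Xelaev18045044m), an alpha subunit of receptors for fibronectin and vitronectin, had 202, 214 and 157 CPM in PGC libraries and 336, 371 and 403 CPM in endoderm libraries, again with no overlap. Its log2 fold change was -0.95 ± 0.15 (edgeR adjusted p = 0.000417). When library scaling followed expression level the values were -0.46 for itga3 and -0.56 for itga6, both still lower, and -0.32 for itgav, which then did not pass. The other gene models of itga3 (Xelaev18043272m, -0.55 ± 0.40) and itga6 (Xelaev18047171m, -0.54 ± 0.31) did not pass, and the libraries of both groups overlapped for each. All 10 alpha subunit gene models together summed to 1128 to 1208 CPM in PGC libraries and 2272 to 2341 CPM in endoderm libraries.

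The 2 gene models of itga5, the alpha subunit of the main fibronectin receptor, did not pass. Xelaev18013548m stood at 182 ± 19.6 in PGCs against 229.5 ± 27.97 CPM in endoderm, and Xelaev18016008m at 88.9 ± 19.3 in PGCs against 70.8 ± 15.2 CPM in endoderm. Their log2 fold changes were -0.33 ± 0.15 and 0.33 ± 0.24, and the libraries of both groups overlapped. itga2 (Xelaev18008304m), a collagen-binding subunit, stood at -0.63 ± 0.35. Gene models of itga4 stood at 1.09 ± 1.03 and 0.91 ± 1.38, and 1 of itgb2, a leukocyte subunit, at 0.06 ± 1.30 with a 95% interval of -2.76 to 2.88.

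itgb8 encodes a beta subunit that pairs with the alpha-v subunit, and its gene models differed. Xelaev18030951m had 3180, 3350 and 2734 counts in PGC libraries and 5054, 2976 and 1886 counts in endoderm libraries, with a log2 fold change of -0.09 ± 0.16. Xelaev18033033m had 316, 147 and 358 counts in PGC libraries, against 45, 0 and 0 counts in endoderm libraries, and was higher in PGCs (4.67 ± 1.56, edgeR adjusted p = 0.0402). All its endoderm counts came from replicate 1, at 1.75 CPM, against 16.8, 8.94 and 22.0 CPM in PGC libraries. With 45 endoderm counts it is in the table, where no gene model had under 150 counts in all, through its PGC counts. Over all 3 endoderm libraries it was 25.5-fold higher. Without replicate 1, the endoderm library with the most counts, the bound was 142-fold, with the other endoderm libraries set at 3 counts in all. It is no bound for the 3 endoderm libraries together. That bound covers counting error only, and the ratio to replicate 1 itself is below it. The call did not hold leaving out each of PGC replicates 1, 2 and 3 and endoderm replicate 3 (4.65, 4.96, 4.39 and 4.16), and when scaling followed expression level (2.99), while it stood at 4.08 without endoderm replicate 2 and 6.91 with a replicate block.

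**Figure D2:**
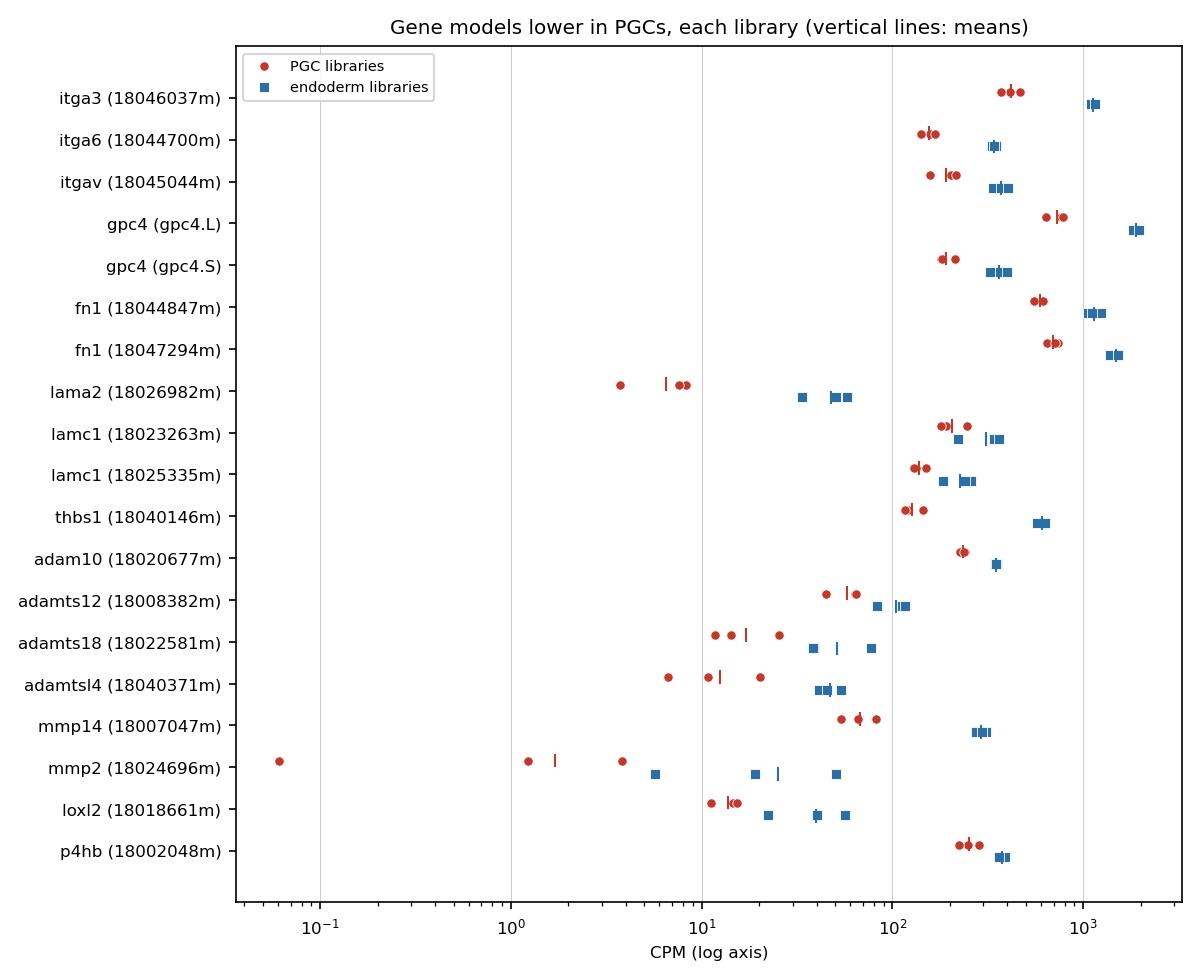
CPM in each library (log axis) for the 19 gene models that were lower in PGCs, with PGC libraries as circles above endoderm libraries as squares and a vertical line at each mean. The 19 were chosen by their call, and the groups are apart for all but 1 lamc1 gene model (Xelaev18023263m). PGC libraries lie wholly below endoderm libraries for 23.7% of all gene models. Among PGC libraries mmp2 spreads most, at 0.0608 to 3.82 CPM.

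Of the membrane proteoglycans, glypican 4 was lower in PGCs and the syndecans of the table did not pass. Of 15 gene models 2 were lower (13.3%, against 16.8% of all gene models) and none was higher by edgeR (against 12.6%). Of the 15, 4 had an unadjusted edgeR p under 0.05, as did 4012 of all 10364 gene models. The DESeq2 Wald test called 2 of the 15 higher, 1 glypican and 1 syndecan gene model, and 1649 of the 10364. gpc4.L, a homeolog of a glypican that acts in Wnt signalling during Xenopus gastrulation, had 764, 784 and 635 CPM in PGC libraries, against 1850, 1831 and 1961 CPM in endoderm libraries (-1.37 ± 0.09, edgeR adjusted p = 3.5e-07). gpc4.S had 213, 180 and 183 CPM in PGC libraries and 366, 397 and 326 CPM in endoderm libraries (-0.92 ± 0.14, edgeR adjusted p = 0.000274). Both homeologs were lower with no overlap between groups, and both calls did not hold when scaling followed expression level, at -0.19 and -0.29. sdc1 (Xelaev18028097m) stood at 251 ± 25.0 in PGCs against 265 ± 15.3 CPM in endoderm, with a 95% interval of the log2 difference of -0.37 to 0.21. For sdc2 (Xelaev18032236m), at 106 ± 9.83 in PGCs against 106 ± 1.28 CPM in endoderm, that interval was -0.37 to 0.39.

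Of the sparser glypicans, gpc1 (Xelaev18029917m) had 202, 208 and 381 counts in PGC libraries and 56, 0 and 0 counts in endoderm libraries. sdc3 (Xelaev18015163m) had 168, 60 and 46 counts in PGC libraries and 10, 0 and 0 counts in endoderm libraries. Neither passed, with edgeR adjusted p of 0.0568 for gpc1 and 0.0902 for sdc3, and both were picked for mention after their values were seen. The other gpc1 gene model (Xelaev18027873m) stood at -0.64 ± 0.70.

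The most counted matrix RNA, fibronectin, was lower in PGCs in both gene models, as were a thrombospondin and laminin chains. Of 32 matrix gene models 6 were lower (18.8%, against 16.8% of all gene models) and 3 higher (9.38%, against 12.6%). The other 23 did not pass. fn1 (Xelaev18047294m) had 642, 733 and 713 CPM in PGC libraries, against 1528, 1380 and 1522 CPM in endoderm libraries (-1.08 ± 0.09, edgeR adjusted p = 1.78e-06). The other fn1 gene model (Xelaev18044847m) had 618, 613 and 555 CPM in PGC libraries and 1057, 1246 and 1114 CPM in endoderm libraries (-0.94 ± 0.10, edgeR adjusted p = 1.36e-05). Neither pair of groups overlapped. When scaling followed expression level they stood at 0.04 and 0.11, neither passing.

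thbs1 (Xelaev18040146m), which encodes thrombospondin 1, a secreted matrix glycoprotein, had 120, 145 and 116 CPM in PGC libraries, against 622, 632 and 570 CPM in endoderm libraries. At -2.26 ± 0.13 (edgeR adjusted p = 7.28e-08) it had the largest fall among matrix gene models with over 100 CPM in endoderm, and it stood at -1.61, still lower, when scaling followed expression level. lama2 (Xelaev18026982m), a laminin alpha chain of basement membranes, had 8.22, 3.71 and 7.56 CPM in PGC libraries and 50.7, 33.4 and 57.9 CPM in endoderm libraries (-2.86 ± 0.46, edgeR adjusted p = 0.000506). lamc1 encodes the gamma chain shared by most laminins. Its gene models stood at -0.73 ± 0.17 (Xelaev18025335m, edgeR adjusted p = 0.0061) and -0.58 ± 0.19 (Xelaev18023263m, edgeR adjusted p = 0.0405).

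The Xelaev18025335m call did not hold without endoderm replicate 1 (-0.56), under total-count scaling (-0.41) and when scaling followed expression level (-0.25). That of Xelaev18023263m did not hold leaving out each of PGC replicates 1 and 3 and endoderm replicates 1 and 3 (-0.53, -0.50, -0.44 and -0.43), with DESeq2 size factors (-0.53), a mean of at least 100 counts (-0.52), a replicate block (-0.57), total-count scaling (-0.26) and scaling by expression level (0.02). Other basement membrane RNAs did not pass. nid2 (Xelaev18039667m), which encodes nidogen 2, a linker of laminin and collagen IV networks, stood at 361 ± 34.1 in PGCs against 387 ± 61.2 CPM in endoderm, with a 95% interval of -0.41 to 0.21. The lamb1 gene models stood at -0.54 ± 0.28 and -0.26 ± 0.42 and lama4 at 1.56 ± 0.73.

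Fibril-forming collagens, the strands of tendon and bone, held the highest fold changes among matrix genes. Of 6 gene models, 3 were higher in PGCs (50%, against 12.6% of all gene models) and none was lower (against 16.8%). DESeq2 called 4 higher and none lower (1649 and 1717 of all 10364 gene models). Of the 6, 4 had an unadjusted edgeR p under 0.05 (4012 of the 10364 did). For 5 the PGC libraries lay wholly above the endoderm libraries (24.5% of all gene models did). The 6 together summed to 84.0, 89.2 and 104 CPM in PGC libraries, against 12.9, 11.8 and 2.95 CPM in endoderm libraries. No gene model of the table had under 150 counts in all. The col1a2 gene models had 6 and 58 endoderm counts and those of col5a2 3 and 53, so they are in the table through their PGC counts. The shares and sums of this group are not independent of that floor. col1a2 (Xelaev18030876m), an alpha chain of type I collagen, had 601, 305 and 439 counts in PGC libraries and 5, 1 and 0 counts in endoderm libraries (7.89 ± 0.98, edgeR adjusted p = 6.34e-05). Without endoderm replicate 1, 1 endoderm count was left against 1345 in PGCs, a ratio of 699 with a 95% counting interval (exact) of 125 to 27620. The value was 5.76 when scaling followed expression level. The other col1a2 gene model (Xelaev18032976m) stood at 3.49 ± 1.46 and did not pass (edgeR adjusted p = 0.0959).

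col24a1 (Xelaev18022877m), a fibril-forming collagen known from bone, had 27.3, 39.7 and 42.7 CPM in PGC libraries, against 5.68, 2.67 and 0.794 CPM in endoderm libraries. It was higher in PGCs by 3.55 ± 0.67 (edgeR adjusted p = 0.00164), with 4.41 without endoderm replicate 1. col5a2 (Xelaev18045006m), a chain of type V collagen, had 86, 197 and 49 counts in PGC libraries and 3, 0 and 0 counts in endoderm libraries, a ratio of 113 with a 95% counting interval (exact) of 38.2 to 549 (edgeR adjusted p = 0.0227). Without endoderm replicate 1, which held all its endoderm counts, the bound used for itgb8 was 57.5-fold, for counting error only. Its call did not hold leaving out each of PGC replicate 2 and endoderm replicate 3 (6.15 and 6.58), with a replicate block (7.33) and when scaling followed expression level (4.13).

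Of 7 other collagen gene models (col8a1, col9a1, col9a3, col12a1 and col18a1) none passed by edgeR or DESeq2, and none had an unadjusted edgeR p under 0.05 (4012 of all 10364 did). They ran from -2.25 for col8a1 to 1.72 for a col12a1 gene model. The fibrillin genes fbn1 and fbn3, of elastic microfibrils, stood at 1.62 ± 0.77 for fbn1 and at 0.43 ± 0.56 and -0.84 ± 0.41 for fbn3, and the sparc gene models at -0.82 ± 1.06 and -1.61 ± 1.45.

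**Figure D3:**
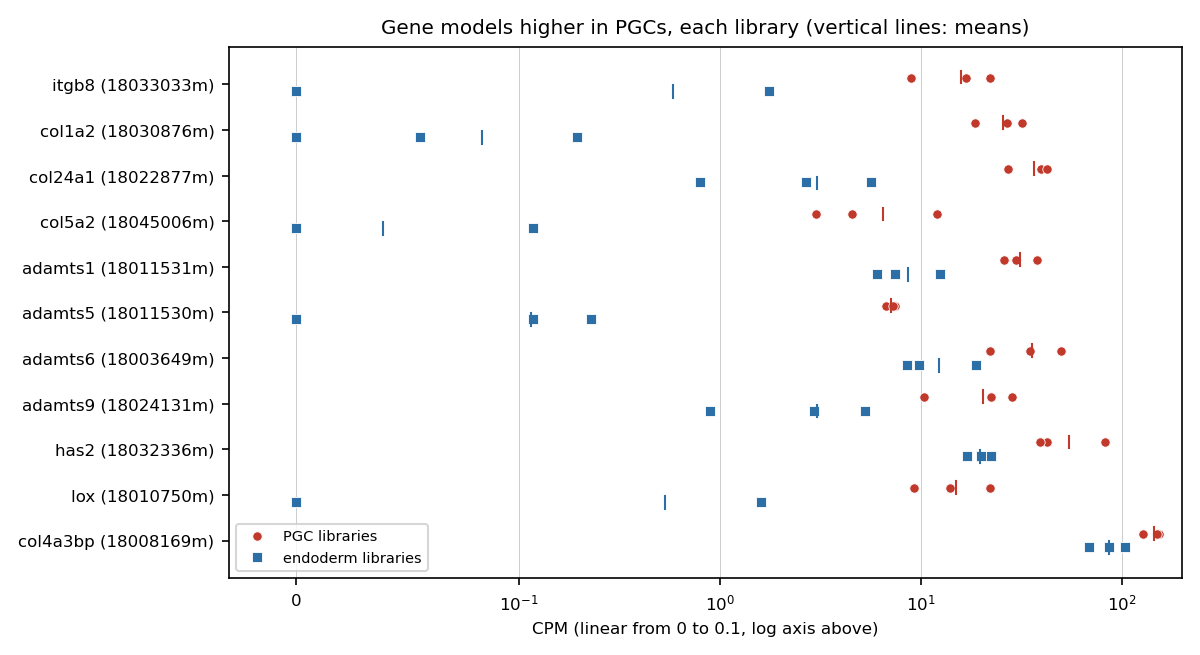
CPM in each library for the 11 gene models that were higher in PGCs, with PGC libraries as circles above endoderm libraries as squares and a vertical line at each mean (axis linear to 0.1 CPM and log above). All 11, chosen by their call, have PGC libraries wholly above endoderm libraries (24.5% of all gene models do). Of the 11, 5 have 1 or 2 endoderm libraries at 0.

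Markers of other cell types also moved between the groups. The 22 mesoderm marker gene models summed to 411 to 529 CPM in PGC libraries and 421 to 499 CPM in endoderm libraries, with none at 0 in either whole group, and these sums join members that moved in opposite directions. Both gene models of bmp4, which encodes a ventral mesoderm signal, were lower, at -2.42 ± 0.28 and -1.23 ± 0.20, and together summed to 72.9 to 110.7 CPM in PGC libraries and 291 to 313 CPM in endoderm libraries. The 20 others summed to 338 to 418 CPM in PGC libraries and 118 to 185 CPM in endoderm libraries, and of these 6 were higher and 14 did not pass. None of the 20 could be lower, as bmp4 held both lower calls of the list. Over the whole list 27.3% were higher and 9.09% lower, against 12.6% and 16.8% of all gene models. The 6 higher were gene models of the mesoderm regulator twist1 (9.42 ± 0.77 and 3.69 ± 1.10), of the protocadherin pcdh8 (9.87 ± 1.14 and 2.44 ± 0.68) and of the notochord gene not (6.09 ± 1.41 and 2.52 ± 0.61). Leaving out single libraries kept 3 of these 6 calls and both bmp4 calls.

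The 20 ectoderm and neural gene models summed to 12057 to 12515 CPM in PGC libraries and 32670 to 34671 CPM in endoderm libraries, nearly all of it from the epithelial keratins krt8 and krt18. Those 5 gene models, of which 4 were lower, summed to 10361 to 10839 CPM in PGC libraries and 30660 to 32543 CPM in endoderm libraries. The 15 others summed to 1675 to 1706 CPM in PGC libraries and 1974 to 2128 CPM in endoderm libraries, and of these 8 were higher and 5 lower. Over the whole list 40% were higher and 45% lower, against 12.6% and 16.8% of all gene models. Those higher were gene models of the neural regulators zic1 (7.89 ± 0.91 and 2.58 ± 0.44), sox2 (8.64 ± 1.75) and sox3 (3.59 ± 0.47 and 3.26 ± 1.09), and of foxj1 (5.29 ± 1.75), dlx5 (2.88 ± 0.91) and krt12 (3.25 ± 0.89). Those lower included gene models of epcam (-0.61 ± 0.11 and -0.31 ± 0.09) and grhl2 (-0.71 ± 0.14). Leaving out single libraries kept 4 of the 8 calls higher and 8 of all 9 lower. When scaling followed expression level, 5 of the 8 and 3 of the 9 were kept, and the direction turned for 1 krt8 gene model (0.04), both krt18 gene models (0.33 and 0.18) and both epcam gene models (0.31 and 0.69). Both lists were divided after their values were seen. Whether cells of these types were present was not tested, nor was any part of such cells in the collagen and protease results.

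Of 39 gene models of the MMP, ADAM, ADAMTS and ADAMTS-like families 6 were lower in PGCs (15.4%, against 16.8% of all gene models), 4 were higher (10.3%, against 12.6%) and 29 did not pass. The symbol rule also covered the TIMP protease inhibitors, but no gene model of these was in the set. Those lower included gene models of the membrane-anchored collagenase mmp14 and the gelatinase mmp2, and all those higher were of secreted ADAMTS proteases. mmp14 (Xelaev18007047m), which cuts collagen and activates pro-MMP2, had 82.0, 54.0 and 65.7 CPM in PGC libraries, against 273, 309 and 293 CPM in endoderm libraries. The groups did not overlap (-2.12 ± 0.18, edgeR adjusted p = 2.56e-06), and scaling by expression level gave -1.73. The other mmp14 gene model (Xelaev18010241m) stood at -0.98 ± 0.82. mmp2 (Xelaev18024696m), which digests gelatin and collagen IV, had 72, 1 and 20 counts in PGC libraries and 487, 906 and 50 counts in endoderm libraries (-3.87 ± 1.16, edgeR adjusted p = 0.0251).

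The mmp2 call did not hold leaving out each of PGC replicate 3 and endoderm replicates 1 and 2 (-3.68, -3.98 and -2.83) and with a replicate block (-3.73), and it stood at -5.26 without PGC replicate 1 and -5.01 when scaling followed expression level. Of the 11 MMP gene models, under 8 symbols, the 9 others did not pass, all those of mmp1, mmp9, mmp13, mmp15, mmp16 and mmp28 among them. The nearest to the threshold of these was an mmp15 gene model (Xelaev18024995m), a membrane-anchored MMP, at 22.0 ± 2.45 in PGCs against 6.88 ± 3.92 CPM in endoderm (1.67 ± 0.63, edgeR adjusted p = 0.0664).

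The 14 ADAMTS gene models, of secreted proteases that cut proteoglycans and procollagens, had a median log2 fold change of 1.49, against 0.07 over all gene models. All gene models below the median of mean CPM had a median of 0.47. Most of the 14 lie there, but adamts12, adamts6 Xelaev18008234m and adamts18 Xelaev18022581m lie above it. For 10 of the 14 the PGC libraries lay wholly above the endoderm libraries, against 24.5% of all gene models. Among these, the adamts5 gene models had 5 and 81 endoderm counts and adamts16 had 60. They are in the table, where no gene model had under 150 counts in all, through their PGC counts. By the test 4 were higher (28.6%, against 12.6%) and 2 lower (14.3%, against 16.8%). adamts1 (Xelaev18011531m), a versican-cutting protease, had 26.1, 29.7 and 37.8 CPM in PGC libraries, against 7.43, 6.07 and 12.5 CPM in endoderm libraries (1.85 ± 0.49, edgeR adjusted p = 0.0128). adamts9 (Xelaev18024131m), of the same proteoglycan-cutting kind, stood at 20.4 ± 9.17 in PGCs against 3.03 ± 2.18 CPM in endoderm (2.75 ± 0.83, edgeR adjusted p = 0.0249). adamts5 (Xelaev18011530m), an aggrecan-cutting protease, had 140, 110 and 118 counts in PGC libraries and 3, 0 and 2 counts in endoderm libraries (5.98 ± 1.81, edgeR adjusted p = 0.0259). adamts6 (Xelaev18003649m) stood at 35.6 ± 13.7 in PGCs against 12.4 ± 5.61 CPM in endoderm (1.53 ± 0.49, edgeR adjusted p = 0.0321). The other gene models of these symbols did not pass, at 0.85 ± 0.39 for adamts1, 1.94 ± 1.65 for adamts5 and 0.08 ± 0.33 for the more counted adamts6 (Xelaev18008234m).

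Each of these 4 calls was lost without at least 1 library. Without PGC replicate 3 the adamts1 call did not hold (1.69). That of adamts9 did not hold leaving out each of PGC replicates 2 and 3 and endoderm replicate 3 (2.43, 2.67 and 2.73), with a replicate block (2.94) and with scaling by expression level (2.22), and it stood at 3.49 without endoderm replicate 1. That of adamts5 did not hold leaving out each of PGC replicates 1, 2 and 3 (5.94, 6.02 and 5.96), with a replicate block (6.32) and with scaling by expression level (2.26). Without endoderm replicate 1 the adamts5 call was also lost, with 2 endoderm counts left and a ratio of 95.6 with a 95% counting interval (exact) of 26.3 to 792, and without endoderm replicate 3 it stood at 6.71. That of adamts6 did not hold leaving out each of PGC replicates 2 and 3 and endoderm replicates 1 and 2 (1.54, 1.21, 1.44 and 1.37) and with scaling by expression level (1.2).

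The ADAMTS gene models that were lower were adamts18 (Xelaev18022581m, 17.1 ± 7.30 in PGCs against 51.3 ± 22.3 CPM in endoderm, -1.58 ± 0.43) and adamts12 (Xelaev18008382m, 57.5 ± 11.2 in PGCs against 104 ± 18.3 CPM in endoderm, -0.85 ± 0.24). edgeR adjusted p was 0.0145 for adamts18 and 0.0168 for adamts12. The other adamts18 gene model (Xelaev18024826m) stood at 0.06 ± 0.78. The adamts18 call did not hold leaving out each of PGC replicates 1 and 2 and endoderm replicate 2 (-1.37, -1.46 and -1.13), and that of adamts12 leaving out each of PGC replicate 1 and endoderm replicates 1 and 3 (-0.70, -0.73 and -0.74), under total-count scaling (-0.53) and with scaling by expression level (-0.68). adamtsl4 (Xelaev18040371m), which encodes an ADAMTS-like protein without a protease domain, had 10.8, 6.63 and 20.2 CPM in PGC libraries and 41.4, 53.4 and 45.6 CPM in endoderm libraries (-1.90 ± 0.45, edgeR adjusted p = 0.00647). The other adamtsl4 gene model (Xelaev18042730m) stood at 0.68 ± 0.87.

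Many, though not all, ADAM proteins are membrane-bound shedding enzymes. Of 9 ADAM gene models 1 was lower by edgeR (11.1%, against 16.8% of all gene models) and none higher (against 12.6%). DESeq2 also called 1 lower and none higher (1717 and 1649 of all 10364 gene models), and 1 had an unadjusted edgeR p under 0.05 (4012 of the 10364). adam10 (Xelaev18020677m), a sheddase of Notch and cadherins, had 241, 225 and 236 CPM in PGC libraries, against 353, 345 and 351 CPM in endoderm libraries (-0.58 ± 0.12, edgeR adjusted p = 0.00276). That call did not hold under total-count scaling (-0.26) and when scaling followed expression level (0.08). The other adam10 gene model (Xelaev18018164m) stood at 72.7 ± 11.4 in PGCs against 75.5 ± 21.6 CPM in endoderm, with a 95% interval of -0.60 to 0.50. Gene models of adam9 and adam17 stood between -0.53 and -0.15.

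Of 12 gene models of collagen and hyaluronan enzymes 2 were lower in PGCs (16.7%, against 16.8% of all gene models) and 2 higher (16.7%, against 12.6%). has2 (Xelaev18032336m), a hyaluronan synthase, had 82.5, 42.5 and 39.3 CPM in PGC libraries, against 22.4, 20.0 and 16.9 CPM in endoderm libraries (1.47 ± 0.37, edgeR adjusted p = 0.0101). The groups did not overlap, but the call did not hold without PGC replicate 1 (1.05). The other has2 gene model and those of has3 stood between 1.10 and 2.72 and did not pass. lox (Xelaev18010750m), a lysyl oxidase that crosslinks collagen and elastin, had 174, 229 and 358 counts in PGC libraries and 41, 0 and 0 counts in endoderm libraries (4.73 ± 1.58, edgeR adjusted p = 0.0407). Over all 3 endoderm libraries it was 26.5-fold higher. Without endoderm replicate 1, at 1.59 CPM against 9.23, 13.9 and 22.0 CPM in PGC libraries, the bound used for itgb8 was 132-fold. The ratio to replicate 1 itself is below that bound, which is none for the 3 endoderm libraries together. Like that of itgb8, this gene model is in the table through its PGC counts. The other, more counted lox gene model (Xelaev18007970m) had 1180 counts over PGC libraries and 1156 counts over endoderm libraries, overlapped between groups and stood at 0.08 ± 0.46. The lox call did not hold leaving out each of PGC replicates 1, 2 and 3 and endoderm replicate 3 (4.99, 4.79, 4.37 and 4.21) and when scaling followed expression level (2.98), and it stood at 4.13 without endoderm replicate 2 and 7.09 with a replicate block.

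loxl2 (Xelaev18018661m), another lysyl oxidase, was lower, at 13.7 ± 2.22 in PGCs against 39.6 ± 17.1 CPM in endoderm (-1.54 ± 0.44, edgeR adjusted p = 0.0188). Its call did not hold leaving out each of PGC replicate 3 and endoderm replicates 1 and 2 (-1.41, -1.47 and -1.17) and under total-count scaling (-1.22). The other loxl2 gene model (Xelaev18020240m) stood at 0.07 ± 0.95. p4hb encodes protein disulfide isomerase, which is also the beta subunit of collagen prolyl 4-hydroxylase. Its Xelaev18002048m gene model stood at 251 ± 30.3 in PGCs against 376 ± 14.4 CPM in endoderm (-0.58 ± 0.13, edgeR adjusted p = 0.00465), a call lost under total-count scaling (-0.26) and with scaling by expression level (0.10). The other p4hb gene model (Xelaev18043753m) stood at 851 ± 60.0 in PGCs against 855 ± 87.9 CPM in endoderm, with a 95% interval of -0.23 to 0.21. plod3, a lysyl hydroxylase, stood at -0.79 ± 0.45.

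The symbol rule also took in col4a3bp, which is no collagen but encodes the ceramide transfer protein CERT. One gene model (Xelaev18008169m) was higher in PGCs, at 144.3 ± 14.2 in PGCs against 86.3 ± 17.5 CPM in endoderm (0.74 ± 0.20, edgeR adjusted p = 0.0136; lost without PGC replicate 1 at 0.69), and the other (Xelaev18010891m) stood at -0.45 ± 0.17.

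Fold changes over the whole table fell with read abundance, and so did those of the gene models described here, over a wider range. Below the median of mean CPM the median log2 fold change was 1.01 for these and 0.47 over all gene models. Above it the medians were -0.55 and -0.23. Among the tenth of all gene models with the highest mean CPM, a measure not divided by transcript length, 70% were lower in PGCs and the median log2 fold change was -0.75. Of the 16 integrin, matrix and protease gene models within the tenth 11 were lower (68.8%), with a median of -0.75. Among the tenth with the lowest mean CPM the median was 0.61 over all gene models, and 1.29 over 20 gene models described here. Above the median of mean CPM, 16 of 40 were lower (40%), against 31.6% of all gene models there, and 2 of 40 were higher (5%), against 15.7%. Below it, 9 of 73 were higher (12.3%), against 9.46%, and 3 of 73 lower (4.11%), against 1.99%.

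When library scaling followed expression level, 9 of the 19 lower gene models were still lower, those of itga3, itga6, thbs1, lama2, mmp14, mmp2, adamts18, adamtsl4 and loxl2. Of the 11 higher ones 5 were still higher, those of col1a2, col24a1, adamts1, has2 and col4a3bp. The other 6 higher and 10 lower gene models did not pass in that scaling.

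**Figure D4:**
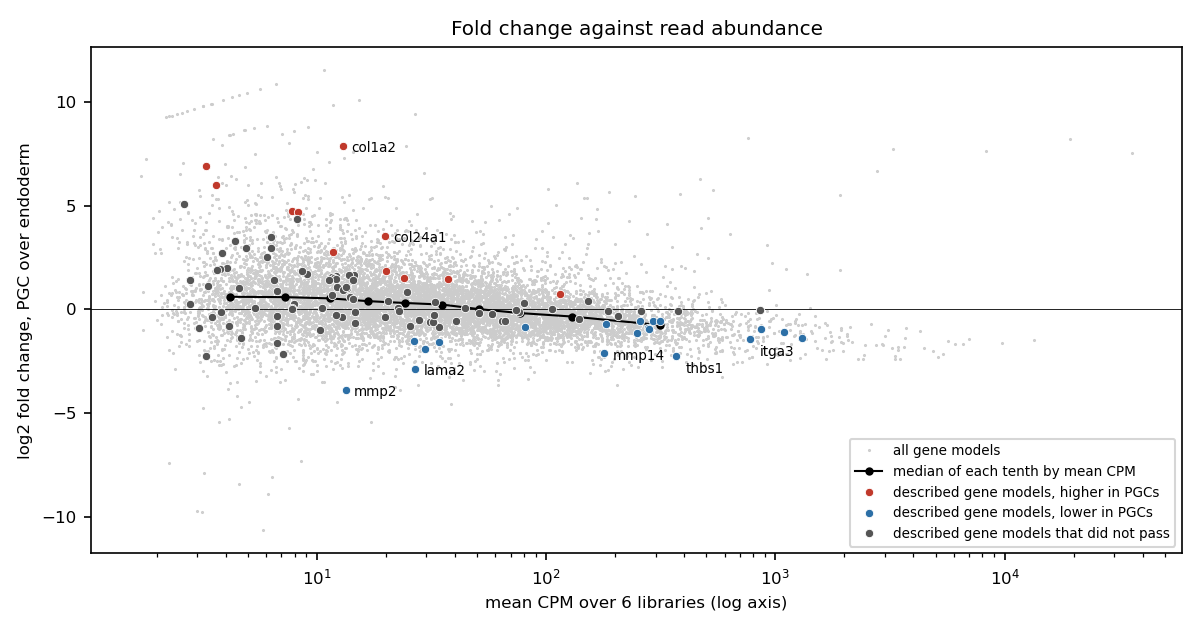
Log2 fold change of PGC over endoderm against mean CPM over the 6 libraries (log axis) for all 10364 gene models in grey, with medians along abundance as a black line and the 113 gene models in colour. The line runs from 0.61 at the low end to -0.75 at the high end, and thbs1 (-2.26), mmp14 (-2.12), lama2 (-2.86) and mmp2 (-3.87) lie below it.

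Of the 43 symbols with a pair of gene models, 3 (fn1, gpc4 and lamc1) had both lower in PGCs, none had both higher, and none had 1 higher and 1 lower. In 9 symbols 1 gene model was lower and the other did not pass, in 9 others 1 was higher and the other did not pass, and in 22 neither passed. The same counts were not made for other symbols, so whether they are particular to these 43 was not tested. The difference between the fold changes of a pair was tested with library as a block, in 3512 pairs over the whole table, of which 342 differed (9.74%). Of the 43 pairs 4 differed (9.3%), at an adjusted p of 0.008 for thbs1, 0.0215 for itgb8, 0.0262 for col4a3bp and 0.0493 for p4hb by edgeR's quasi-likelihood test.

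The thbs1 gene models stood at -2.26 (Xelaev18040146m) and 1.01 (Xelaev18042667m), a difference of -3.06 ± 0.52 in the pair fit, and the sparser one had 40, 98 and 168 counts in PGC libraries and 97, 55 and 20 counts in endoderm libraries. For itgb8 the difference was -5.10 ± 1.10 between Xelaev18030951m and Xelaev18033033m, and for p4hb -0.58 ± 0.16 between Xelaev18002048m and Xelaev18043753m. For col4a3bp it was 1.21 ± 0.27 between Xelaev18008169m and Xelaev18010891m. For gpc4 the difference, L minus S, was -0.46 ± 0.15 and did not pass (edgeR adjusted p = 0.0965). The handling of reads that match both copies is unknown here, so differences between copies are uncertain.

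**Figure D5:**
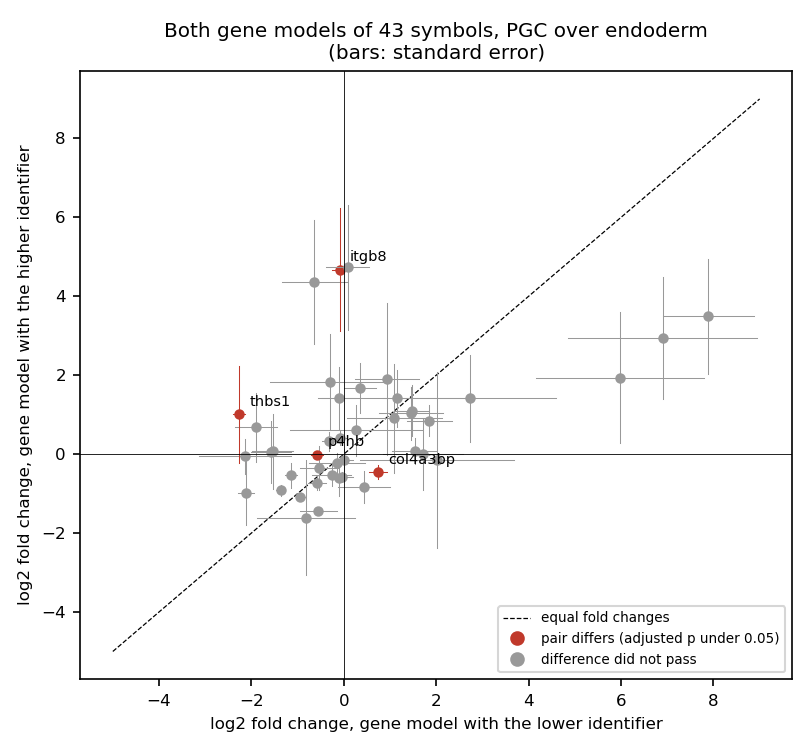
Log2 fold changes of PGC over endoderm for both gene models of 43 symbols, with bars for the standard errors and a dashed line where both would be equal. The 4 pairs whose difference passed are in red, with thbs1 at -2.26 and 1.01 and itgb8 at -0.09 and 4.67.

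The second deposited table, named v7.1, held 61 gene models under the same rule, and 20 of these were of 16 symbols not in v9.1. It counts the same 6 libraries on other gene models, so a call shared by both tables is not independent support. Fitted on its own, with all 7902 gene models, v7.1 gave 14 of 61 lower in PGCs (16.1% of all gene models there) and 4 of 61 higher (12.8%). Of the 20, 7 were lower and 2 higher. Among symbols with a call in v9.1, gene models of fn1, thbs1, gpc4, itga6, itgav, mmp14 and adam10 were also lower in v7.1. Those of has2 and adamts1 were also higher. Gene models of mmp2 (-3.04 ± 2.14), loxl2 (-1.02 ± 0.59) and lox (2.84 ± 1.88 and -0.91 ± 2.04) did not pass in v7.1. Nor did those of itga3, p4hb and col4a3bp. For itga3 and p4hb, however, no v7.1 gene model had counts near those of the copy called in v9.1. The more counted p4hb one had 17241, 13822 and 12940 counts in PGC libraries. The v9.1 copy of p4hb that did not pass had 17241, 13834 and 12947, and the called one 4672, 3657 and 4601. itgb1 encodes the beta subunit that pairs with most alpha subunits above. Its 2 well-counted gene models had 472 ± 36.7 in PGCs against 761 ± 74.5 CPM in endoderm (itgb1-a, -0.69 ± 0.11, edgeR adjusted p = 0.000434) and 526 ± 37.7 in PGCs against 968 ± 57.1 CPM in endoderm (itgb1-b, Xelaev15054169m.g, -0.88 ± 0.10, edgeR adjusted p = 2.01e-05). has1, the hyaluronan synthase first known in Xenopus as DG42, had 7457, 7604 and 7662 CPM in PGC libraries, against 18194, 16775 and 17296 CPM in endoderm libraries (-1.20 ± 0.04, edgeR adjusted p = 4.08e-11).

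When scaling followed expression level in v7.1 the has1 value turned to 0.56 and passed in that direction, itgb1-a turned to 0.08 and itgb1-b stood at -0.05, neither passing. In v7.1 the tenth of gene models with the highest mean CPM, where all 3 lie, had a median of -0.65 and 64.9% lower in PGCs. The v7.1 gene models chosen for mention here were picked after their values were seen.

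The 2 gene models of sdc4, a syndecan of focal adhesions, went opposite ways in v7.1. sdc4-a had 250, 277 and 219 CPM in PGC libraries, against 122, 180 and 152 CPM in endoderm libraries, and was higher by 0.72 ± 0.18 (edgeR adjusted p = 0.00845). sdc4-b had 303, 368 and 329 CPM in PGC libraries, against 566, 599 and 590 CPM in endoderm libraries, and was lower at -0.81 ± 0.12 (edgeR adjusted p = 0.00016), a call lost with scaling by expression level (-0.15). The difference between the 2 was not tested. plod1, a lysyl hydroxylase, was higher, at 145 ± 37.8 in PGCs against 58.92 ± 15.98 CPM in endoderm (1.30 ± 0.27). fbln1, which encodes the matrix glycoprotein fibulin 1, was lower, at 39.8 ± 13.2 in PGCs against 145 ± 7.08 CPM in endoderm (-1.86 ± 0.26). The membrane-anchored MMP gene mmp25 (-1.17 ± 0.16) and adam33 (-0.64 ± 0.15; -0.10, not passing, with scaling by expression level) were lower as well. The edgeR adjusted p was 0.00238 for plod1, 0.000108 for fbln1, 0.000101 for mmp25 and 0.00641 for adam33.

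Other genes of these pathways were read from lists in v9.1. Of 31 gene models of the intracellular integrin adhesion machinery 8 were lower (25.8%) and 3 higher (9.68%) in PGCs, with a median of -0.42. parva (Xelaev18024568m), an actin-binding partner of integrin-linked kinase, stood at 4.12 ± 1.53 in PGCs against 30.9 ± 6.64 CPM in endoderm (-2.91 ± 0.55). tns1 (Xelaev18046977m), which encodes tensin 1, stood at -1.28 ± 0.30, and crkl (Xelaev18007611m), an adaptor, was higher by 1.28 ± 0.35 but not leaving out each of PGC replicates 2 and 3 (1.28 and 1.10). The edgeR adjusted p was 0.00165 for parva, 0.0059 for tns1 and 0.0162 for crkl. The other parva gene model (Xelaev18021780m), at 28.1 ± 4.98 in PGCs against 38.05 ± 13.6 CPM in endoderm (-0.44 ± 0.37), did not pass. Nor did the other tns1 gene model (Xelaev18044422m, -0.22 ± 0.27), while the other of crkl (Xelaev18010506m) was higher by 0.83 ± 0.23 (edgeR adjusted p = 0.0169).

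Of 41 gene models of heparan and chondroitin sulfate synthesis and editing 10 were lower (24.4%) and 3 higher (7.32%), with a median of 0.13. The extracellular 6-O-sulfatases, which trim heparan sulfate and change growth factor binding, split. sulf1 (Xelaev18032097m) stood at 861 ± 23.96 in PGCs against 155 ± 14.1 CPM in endoderm (2.47 ± 0.11, edgeR adjusted p = 8.32e-09), with 3.22 when scaling followed expression level. sulf2 (Xelaev18043428m) stood at 8.77 ± 2.40 in PGCs against 59.0 ± 13.1 CPM in endoderm (-2.75 ± 0.38, edgeR adjusted p = 0.000151). The PGC libraries lay wholly above the endoderm libraries for sulf1 and wholly below them for sulf2. The other gene models of both did not pass, at 1.53 ± 0.66 for sulf1 (Xelaev18033783m) and -0.49 ± 0.29 for sulf2 (Xelaev18046154m). glce (Xelaev18018470m), the epimerase of heparan sulfate, was higher by 2.35 ± 0.34 (edgeR adjusted p = 0.000213).

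Of 13 gene models of collagen folding and secretion 4 were higher (30.8%) and 2 lower (15.4%), with a median of 0.30. Named here are both lower ones and 1 of the 4 higher, by largest absolute change. fkbp10 (Xelaev18045869m), a procollagen chaperone, stood at 14.6 ± 4.96 in PGCs against 83.5 ± 9.43 CPM in endoderm (-2.51 ± 0.33), and crtap (Xelaev18046117m), of the prolyl 3-hydroxylase complex, at -2.24 ± 0.61. The crtap call did not hold leaving out each of PGC replicate 2 and endoderm replicate 1 (-2.08 and -2.02), and it stood at -3.10 without PGC replicate 1. furin (Xelaev18018314m), a proprotein convertase, was higher by 1.50 ± 0.23. The edgeR adjusted p was 0.000112 for fkbp10, 0.0155 for crtap and 0.000319 for furin.

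Of 28 gene models of other matrix proteins and matrix receptors 3 were lower (10.7%) and 2 higher (7.14%), with a median of -0.10. vcan (Xelaev18008104m), which encodes versican, a hyaluronan-binding proteoglycan, had 233 ± 34.8 in PGCs against 787 ± 117 CPM in endoderm (-1.76 ± 0.14, -0.96 with scaling by expression level). The other vcan gene model (Xelaev18010847m) was higher in PGCs, at 56.3 ± 9.59 in PGCs against 28.7 ± 3.6 CPM in endoderm with no overlap (0.97 ± 0.30, edgeR adjusted p = 0.0268), a call lost when replicate 2 or replicate 3 of either group was left out (edgeR adjusted p = 0.0559 to 0.0954) and with a replicate block (edgeR adjusted p = 0.053). The difference between the copies was -2.72 ± 0.26 (edgeR adjusted p = 0.000722). dag1 (Xelaev18025754m), the laminin receptor dystroglycan, stood at 94.6 ± 24.8 in PGCs against 276 ± 33.8 CPM in endoderm (-1.55 ± 0.20). The edgeR adjusted p was 1.74e-06 for vcan and 8.09e-05 for dag1. matn2 (Xelaev18032231m), which encodes matrilin 2, had 54, 136 and 64 counts in PGC libraries and 3, 0 and 0 counts in endoderm libraries, and its call did not hold without any 1 library other than endoderm replicate 1.

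Of 16 gene models of other pericellular proteases and inhibitors 7 were lower (43.8%) and 6 higher (37.5%), with a median of 0.09. The 3 named here had the largest absolute change and were all lower, while the 6 higher are not named. reck (Xelaev18031326m), a membrane-anchored inhibitor of MMP14, MMP2 and MMP9, had 151 ± 25.9 in PGCs against 768 ± 38.9 CPM in endoderm (-2.35 ± 0.14, edgeR adjusted p = 7.6e-08), with -1.63 when scaling followed expression level. htra3 (Xelaev18005078m), a secreted serine protease, stood at -2.45 ± 0.24 (edgeR adjusted p = 9.79e-06). plg (Xelaev18029104m), which encodes plasminogen, stood at -2.41 ± 0.83 (edgeR adjusted p = 0.046). The plg call did not hold leaving out each of PGC replicates 1 and 3 and endoderm replicates 1 and 2 (-2.00, -2.32, -2.06 and -2.32), with DESeq2 size factors (-2.35), total-count scaling (-2.09), a mean of at least 100 counts (-2.35) and a replicate block (-2.53), and it stood at -3.10 without PGC replicate 2. The calls in each list are read against 12.6% higher and 16.8% lower over all gene models.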

How the data were processed

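The submitters' processing notes name HTSeq 0.6.0, TopHat2 2.1.0, edgeR 3.12.0, Bowtie2 2.2.6 and SAMtools 1.2 without saying what each did. Genome build, strand setting and the treatment of reads matching several genes: not given in the sources used here. Close copies and overlapping genes are therefore uncertain. The deposited values used here were raw read counts, whole numbers for each gene model. No gene model of either table had under 150 counts in all, so sparser genes were not analysed here. A gene model with few counts in 1 group is therefore in the table only through its counts in the other group. The 12 columns of normalized per-library values were not used.

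The v9.1 counts went into edgeR 4.0.16 under R 4.3.3 (quasi-likelihood test, TMM scaling, cell type as the only term, two-sided, Benjamini-Hochberg over all gene models at 0.05). The low-count filter (filterByExpr at 10 counts, total 15) removed none. CPM divide counts by the library size after TMM scaling. A standard error is the log2 fold change over the root of its F statistic. Intervals and bounds cover counting error only where called counting intervals. Pairs of gene models with 1 symbol were tested by the gene model by cell type interaction with library as a block. Scaling by expression level used loess offsets with a span of 0.3. The steps were tested on simulated counts.

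Members, lists and tests were chosen with earlier results of these data known. Named were every called integrin subunit, the 5 largest called changes per direction in each other class, the 3 most counted per class, 10 genes chosen by role (hspg2 was not analysed here), up to 6 differing pairs and up to 3 genes per list. Symbols were those of the tables, and 68 of 70 were in the RefSeq table of assembly Xenopus_laevis_v10.1, used for names only. The 2 not found there were adam28 and lama2, so the name lama2 rests on the count table alone. No sequences were analysed here. The values of 1 ectoderm and neural marker are not reported here. Deviations from group means of same-numbered libraries correlated at 0.0114, -0.00209 and -0.0134. These values gave no sign of pairing by number but cannot exclude shared collections. Each library was counted as 1 sample. Counts of libraries within a group differed far beyond sampling noise (40.6 to 68.3 in chi-square over its degrees of freedom), which does not tell aliquots from separate collections.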

Additional observations from a re-analysis of the deposited data

How the results depend on the processing

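Of 30 gene models called among the 113, 8 kept their call under every alternative fitted to v9.1. They were 6 lower (itga3, itga6, thbs1, lama2, mmp14 and adamtsl4) and 2 higher (col1a2 and col24a1). In v7.1, from the same libraries, gene models of itga6, thbs1 and mmp14 were also lower, while those named itga3-a did not pass (-1.47 ± 1.97 and -0.72 ± 0.48). In PGC libraries these had 0, 0 and 89 counts and 522, 125 and 486 counts. The itga3 copy called in v9.1 had 7770, 6108 and 7564 counts there, so it had no match by counts in v7.1. No gene model of lama2, adamtsl4, col1a2 or col24a1 matched the rule in v7.1. The number higher was 17 under total-count scaling, 17 with the DESeq2 Wald test and 4 in v7.1, where fewer gene models match the rule, and 5 to 14 leaving out 1 library each. The number lower was 9 when scaling followed expression level and 14 to 18 leaving out 1 library each. Counting only gene models with counts in at least 2 libraries of each group, an alternative chosen after seeing the data, 8 were higher and 19 lower. DESeq2 called 20 lower, and over all 10364 gene models it called 1649 higher and 1717 lower.

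Over all gene models 1301 were higher and 1739 lower. The number lower was 1117 under total-count scaling, with a median log2 fold change of 0.39, and 1156 when scaling followed expression level, with a median of -0.05. Leaving out 1 library each gave 899 to 1323 higher and 1337 to 1568 lower. Same-symbol pairs that differed were 342, 387 with a mean of at least 100 counts in both, and 168 to 285 leaving out 1 library each. With a replicate block 9 of the 113 were higher and 17 lower, and 1187 and 1682 of all gene models. The block ended the calls of adamts5, adamts9, col5a2, lamc1 Xelaev18023263m and mmp2 among the 113. Same-numbered libraries gave no sign of pairing.

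Directions turned when scaling followed expression level for fn1 (0.11 and 0.04), adam10 Xelaev18020677m (0.08), lamc1 Xelaev18023263m (0.02), p4hb Xelaev18002048m (0.10), itgb1-a (0.08) and has1 (0.56), the last 2 in v7.1. Among gene models that had not passed, that scaling turned itga5 Xelaev18013548m (0.19), adam10 Xelaev18018164m (0.11), itgb8 Xelaev18030951m (0.40), sdc1 Xelaev18028097m (0.54, then higher) and p4hb Xelaev18043753m (1.05, then higher). Total-count scaling turned the same adam10 (0.27), sdc1 (0.24), itgb8 (0.23) and p4hb (0.31, then higher) gene models. This adam10 gene model also turned with a mean of at least 100 counts (0.01) and leaving out single libraries (-0.15 to 0.23). The same p4hb gene model turned with DESeq2 size factors (0.04), the DESeq2 Wald test (0.04), a mean of at least 100 counts (0.05), and leaving out some single libraries (-0.06 to 0.11 over all 6). Leaving out single libraries gave -0.12 to 0.00 for sdc1 and -0.19 to 0.02 for itgb8. The cause was not tested. Gene models called higher were sparser: the median mean count per library was 225 for those higher and 4417 for those lower. In v9.1, members with 0 counts numbered 2, 2 and 1 in PGC replicates 1, 2 and 3 (16.9, 14.8 and 14.5 M total counts). In endoderm replicates 1, 2 and 3 they numbered 0, 15 and 13 (28.3, 20.2 and 9.9 M). All 8 members with counts in only 1 endoderm library had them in replicate 1. Members with few endoderm counts are in the table through their PGC counts. The part of depth in these zeros was not tested.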
